A study of Mus musculus with 2 samples.

Results

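The circadian clock genes described here were 10 genes chosen by name: Clock, Per1, Per2, Per3, Cry1, Cry2, Nr1d1, Nr1d2, Dbp and Tef. All 10 were among the 32227 genes of the count tables. The tables came from single-nucleus RNA sequencing of mouse kidney thick ascending limb (TAL), the nephron segment that reabsorbs salt through the cotransporter NKCC2, encoded by Slc12a1. There were 2 libraries, a superficial strip of kidney called cortex and the remaining tissue called medulla, which still held deep cortex. Both came from male mice on the B6 background labelled WT, with 12 as the age label and no unit, that carried NKCC2-CreERT2 and a Sun1/sfGFP reporter, had received tamoxifen, and had their GFP-bearing nuclei sorted. The reporter therefore depends on Cre under the NKCC2 promoter in both libraries, and a control group was not part of the design. The mice were kept on a light/dark cycle, but the hour of collection and the number of animals behind each library are not given in the sources used here. Each region was a single library, so region and library (and hour of collection, if it differed) cannot be told apart, no test across samples was possible, and every interval below is a 95% interval that covers counting error only.

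The mammalian clock is a feedback loop of transcription. CLOCK pairs with BMAL1 and activates genes that carry E-box elements, among them the Per and Cry genes, whose protein products come back to the nucleus and repress CLOCK and BMAL1. A second loop runs through the nuclear receptors REV-ERBα and REV-ERBβ (genes Nr1d1 and Nr1d2), which repress through ROR elements, and a set of output factors with a PAR domain and a basic leucine zipper (Dbp, Tef and Hlf) acts through D-box elements. In kidney the clock is known for the daily rhythm of urinary salt and water excretion.

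The 3 elements were looked for in the 250 bases before the start of each gene's canonical transcript (GENCODE M39, mouse build GRCm39, the build named for these data), on both strands. E-box was searched as CACGTG, D-box as TTATGTAA, TTACGTAA or TTACATAA, and the ROR element core as TAGGTCA or TGACCTA. An E-box stood in 3 of the 10 promoters (Per1, Cry1 and Tef), a D-box in 2 (Per2 and Per3) and a ROR core in 1 (Dbp). Over all 21757 protein-coding promoters of the same length, 6.26% held the E-box, 0.933% the D-box and 2.16% the ROR core. A match is a run of letters and not a measured site, and none of the 3 elements overlapped another in these windows. The promoters below are those of Per1, Per2, Per3 and Dbp, shown because each carries 1 kind of element and because Per3 and Dbp are the members described most closely below. The matched letters are in capitals and the sequences run 5′ to 3′.
Per1: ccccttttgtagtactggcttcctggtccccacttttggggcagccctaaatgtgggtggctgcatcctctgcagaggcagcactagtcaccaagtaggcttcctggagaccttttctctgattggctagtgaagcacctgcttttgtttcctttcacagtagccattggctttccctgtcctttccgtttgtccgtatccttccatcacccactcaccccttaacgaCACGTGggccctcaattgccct
Per2: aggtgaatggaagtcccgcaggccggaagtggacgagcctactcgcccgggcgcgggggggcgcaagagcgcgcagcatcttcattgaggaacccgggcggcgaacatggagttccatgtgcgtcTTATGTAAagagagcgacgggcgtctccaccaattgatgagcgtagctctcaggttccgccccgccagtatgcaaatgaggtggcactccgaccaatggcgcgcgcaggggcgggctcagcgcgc
Per3: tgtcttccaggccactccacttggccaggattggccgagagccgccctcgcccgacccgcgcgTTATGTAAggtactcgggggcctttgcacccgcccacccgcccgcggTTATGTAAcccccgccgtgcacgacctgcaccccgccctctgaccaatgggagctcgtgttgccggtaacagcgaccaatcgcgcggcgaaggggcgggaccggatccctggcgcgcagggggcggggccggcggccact
Dbp: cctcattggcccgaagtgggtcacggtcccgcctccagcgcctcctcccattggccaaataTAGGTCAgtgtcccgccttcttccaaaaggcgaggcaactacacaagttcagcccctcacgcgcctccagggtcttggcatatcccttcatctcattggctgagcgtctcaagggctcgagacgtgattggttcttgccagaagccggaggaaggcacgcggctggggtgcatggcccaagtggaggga
The Per1 window is chr11:68989018-68989267 (plus strand), with the E-box starting at position -22 from the transcript start. The Per2 window is chr1:91387047-91387296 (minus strand), with a D-box at -125. The Per3 window is chr4:151129141-151129390 (minus strand), with D-boxes at -187 and -140. The Dbp window is chr7:45354262-45354511 (plus strand), with a ROR core at -189.

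Nuclei were sorted into TAL classes by marker counts among barcodes with at least 10 counts of Slc12a1, 5218 of 5442 in the cortex library and 7967 of 8121 in the medulla library. Macula densa (MD) nuclei, the sensor cells beside the glomerulus, held at least 3 counts of Nos1 plus Pappa2. Of the rest, β nuclei held at least 2 of Tmem52b, γ nuclei at least 2 of Tmem207 plus Gpc5, and all others were α. This gave 2824 α, 1493 β, 248 γ and 653 MD nuclei in cortex and 3776, 571, 3542 and 78 in medulla. Median depth was 1883 to 2668 counts per nucleus over the cortical classes and 1995.5 to 2780 over the medullary ones, lowest in MD in both libraries, and the libraries shared 0 barcodes. The α class is what remains, so shallow nuclei that lost their marker counts fall into it. Only some of the genes outside the rule that were chosen to check the labels are given here. Those given next matched the labels in cortical α, β and MD nuclei. No such level is given for medullary β or MD nuclei. Pth1r is also among the cortical score genes used below, so it need not follow class alone. Ptger3 was at 1208 counts per 1000000 counts of its class (CPM) in cortical α against 157 in β, Pth1r at 298 against 566, and Robo2 at 4789 in cortical MD against 475 in α. Cldn10, by which the study names α cells, had a count in 1024 of 2824 cortical and 1529 of 3776 medullary α nuclei. The cortical γ class went against its label: Pth1r stood at 455 CPM and Cldn16 at 153, nearer to β (566 and 188) than to medullary γ (42.0 and 55.0), and it is named here only for its rule.

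The clock genes were counted throughout the TAL in both libraries. Tef, the output factor, was the most abundant for its length, at 18.7 CPM per kilobase of gene in cortical α and 17.8 in medullary α. In cortical α nuclei the order then ran Dbp (13.6 CPM per kilobase), Per3 (7.40), Per1 (5.70), Per2 (5.53), Nr1d2 (4.00), Cry2 (2.69), Nr1d1 (2.06), Clock (1.26) and Cry1 (0.526). Of these neighbours only Per1 and Per2 had overlapping intervals. In medullary α nuclei Per1 (5.91), Dbp (5.84) and Per3 (5.75) followed Tef with overlapping intervals, Per2 (4.35) and Nr1d2 (3.99) overlapped each other, and Cry2 (2.16), Clock (1.48), Nr1d1 (0.903) and Cry1 (0.574) were lower. The length is that of the whole gene, introns included, since nuclei hold unspliced RNA. Sequencing was from the 3′ end, so counts need not grow with gene length, and the order depends on this division. By CPM alone Tef was still highest in cortical α (456), while Dbp (69.6) lay below Clock (138). Bmal1, listed in the tables under its older symbol Arntl, held only 58 counts (3.70 CPM) over all cortical TAL nuclei and 66 counts (3.24 CPM) over the medullary ones.

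**Figure D1:**
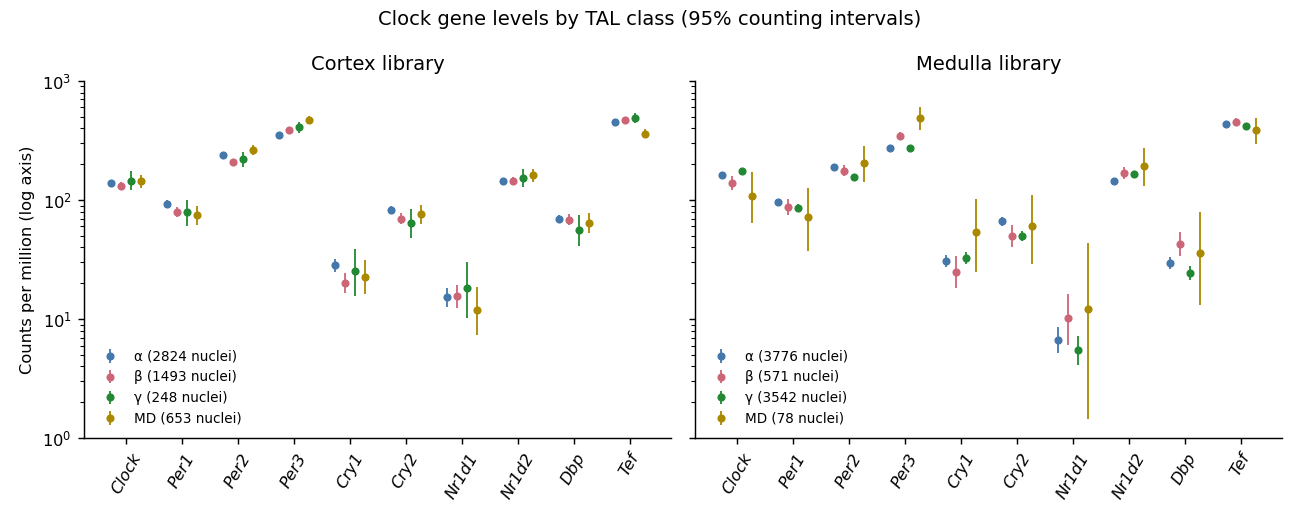
Level of each clock gene in CPM (log axis) in the 4 TAL classes of the cortex and medulla libraries, 1 point per class with its 95% counting interval. Most points of a gene lie close together within a library, Per3 is highest in MD nuclei (474 and 488 CPM), and the intervals of medullary MD (78 nuclei) are wide.

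Clock, the activator of the loop, stood at 138 CPM in cortical α (95% interval 130.4 to 147), 131 in β, 145 in γ and 145 in MD. Its medullary levels were 163 CPM in α, 139 in β, 176 in γ and 108 in MD, the last from 18 counts. The cortical class levels lay within each other's counting error, while in medulla β was below α (ratio 0.855, 0.744 to 0.979) and γ above it (1.08, 1.00 to 1.16). The cortical β over α ratio, 0.943 (0.856 to 1.04), depended on the setting. It was 0.839 (0.732 to 0.959) without barcodes holding over 1 count of markers of other cell types. In nuclei thinned to 1000 counts it was 0.831 (0.693 to 0.994), and with class thresholds raised by 1 it was 1.01.

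The Per genes, repressors of the loop, did not share 1 class pattern. Per1 was highest in α in both libraries, at 92.8 CPM in cortex against 79.0 in β, 78.8 in γ and 74.4 in MD, and at 96.2 CPM in medulla against 87.7, 86.5 and 72.3. Per2 reached 240 CPM in cortical α, 209 in β, 219 in γ and 264 in MD, and 189, 177, 157 and 205 CPM in the same classes of the medulla. Per3 was lowest in α and highest in MD in cortex, at 354 CPM in α, 387 in β, 407 in γ and 474 in MD. In medulla Per3 was at 275 CPM in α, 347 in β, 273 in γ and 488 in MD. MD was thus the highest class for Per3 and the lowest for Per1 in each library, the medullary Per1 value resting on 12 counts (ratio to α 0.752, 0.387 to 1.32, and 0.256, 0.0308 to 0.930, in nuclei thinned to 1000 counts).

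Cry1 and Cry2, partners of the Per proteins in repression, both had lower levels in β than in α nuclei. Cry1 was sparse, at 28.2 CPM in cortical α, 20.3 in β, 25.5 in γ and 22.8 in MD, and in medulla at 30.8, 25.05, 32.9 and 54.2, the MD value resting on 9 counts. Cry2 stood at 82.2 CPM in cortical α, 69.6 in β, 64.2 in γ and 76.2 in MD, and at 66.1, 50.1, 49.7 and 60.2 in the medullary classes. For Cry2 the cortical β nuclei stood at 0.847 times the α level (0.743 to 0.964) and the medullary ones at 0.758 times (0.599 to 0.949). For Cry1 the values were 0.718 (0.564 to 0.908) and 0.813 (0.578 to 1.12), the second with an interval that holds 1 and 0.421 (0.178 to 0.856) in thinned nuclei. Barcodes with over 1 count of markers of other cell types were also left out. The cortical ratios were then 0.900 (0.665 to 1.21) for Cry1 and 0.846 (0.712 to 1.002) for Cry2, both with intervals that hold 1. Medullary Cry2 was at 0.727 (0.564 to 0.926).

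Nr1d1 was the least counted member. Its cortical levels were 15.3 CPM in α, 15.7 in β, 18.2 in γ and 12.0 in MD, and its medullary levels 6.72, 10.2, 5.52 and 12.0, the last from 2 counts. Nr1d2 was at 144 CPM in cortical α, 145 in β, 154 in γ and 161 in MD, and at 144, 170.2, 165 and 193 in medulla. The medullary α and γ levels of Nr1d1 lay below the cortical ones beyond their counting intervals, and those of Nr1d2 did not. The γ classes compared there differ by their markers, as given above. Nr1d1 overlaps Thra, the thyroid hormone receptor α gene on the opposite strand, over 3173 bases, and Thra held 621 and 465 counts in the libraries. Whether counting used strand is not stated in the sources used here, so reads in that overlap cannot be assigned to 1 of the genes with certainty.

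Dbp, the PAR factor whose rhythm in tissues is known to be large, was at 69.6 CPM in cortical α, 68.5 in β, 55.8 in γ and 64.8 in MD. The medullary classes held 29.9, 42.7, 24.3 and 36.1 CPM, each below the cortical class of the same name, with an overlapping interval in MD alone (6 medullary counts). The γ classes of cortex and medulla differ by their markers, and region and library cannot be told apart. Dbp overlaps Sphk2 on the other strand over 737 bases. Tef, its relative, stood at 456 CPM in cortical α, 467 in β, 487 in γ and 362 in MD, and at 434, 456, 417 and 385 in medulla. Tef therefore differed little between libraries. Clock overlaps Tmem165 over 16020 bases in the same way.

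To read these levels against the transcriptome, a gene was counted as past the fold where its CPM ratio between classes was at least 1.5 or at most 1/1.5, among genes with at least 50 counts over both classes. The 3 comparisons of a library share its α nuclei. In MD against α nuclei of the cortex, 0 of 10 members were higher and 0 lower, where 12.1% and 12.3% of 11465 genes were. The median ratio of the members was 0.929 beside 1.02 for all genes. Per3 was the member with the highest ratio, 1.34 (1.24 to 1.45) from 790 MD and 2817 α counts. Nr1d1 was lowest, at 0.783 (0.462 to 1.26) from 20 MD counts. Tef was at 0.793 (0.727 to 0.865) and Per1 at 0.802 (0.657 to 0.971), both with intervals below 1. Cortical MD nuclei were the shallowest class, and Umod, a TAL product, was at 718 CPM in them against 3804 in α. Their summed proximal tubule markers were at 1538 CPM against 2132 in α and those of the distal convoluted tubule at 150 against 74.6. Without barcodes holding over 1 count of markers of other cell types, Tef was at 0.709 (0.634 to 0.792). Per1 was then at 0.719 (0.565 to 0.907). Per2 at 1.14 (1.01 to 1.29) and Nr1d2 at 1.19 (1.01 to 1.39) then had intervals above 1. Tef was also at 0.712 (0.643 to 0.788) without high doublet scores and at 0.702 (0.604 to 0.814) in nuclei thinned to 1000 counts. The part of other cell types in these ratios was not otherwise tested.

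In medulla 3 of 10 members were past the fold upward in MD (Per3, Cry1 and Nr1d1) and 1 downward (Clock), where 23.5% and 28.8% of 10775 genes were. The MD side of this comparison held 166019 counts over 78 nuclei. Only Per3 of the 4 had an interval without 1, at 1.78 (1.41 to 2.22) from 81 MD counts. Cry1 was at 1.76 (0.796 to 3.39), Nr1d1 at 1.79 (0.213 to 6.75) and Clock at 0.665 (0.393 to 1.05). The members' median ratio was 1.15 beside 0.991 for all genes. After barcodes with over 1 count of markers of other cell types were left out, Per3 stood at 1.39 (1.27 to 1.53) in cortex and 1.89 (1.49 to 2.36) in medulla. Counting nuclei gave the same order: with each nucleus thinned to 1000 counts, 29.1% of cortical α nuclei (27.5 to 30.9) and 36.3% of MD nuclei (32.6 to 40.1) held a Per3 count, and in medulla 23.0% (21.7 to 24.4) and 43.6% (32.4 to 55.3). Without thinning the shares were 56.9% and 60.3% in cortex, and 43.8% and 65.4% in medulla. The α nuclei of each library were not matched to MD nuclei for position along the limb. The part of position in the MD ratios was not tested.

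Position along the limb was read within each library from scores of 13 cortical and 13 medullary genes, none of them a clock gene. The study drew both lists from genes that differed between its cortical and medullary TAL nuclei, that is, from these same data. Cortex-side α nuclei held at least 3 cortical score counts and at least 2 times as many as medullary ones, and medulla-side α nuclei the reverse. The cortex library had 1685 cortex-side and 201 medulla-side α nuclei, and the medulla library 372 and 2704. Median depths were 2360 and 2269 counts, and 2602 and 2343.5.

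Dbp was higher on the cortex side in both libraries. In the medulla library its level was 64.0 CPM (62 counts) on the cortex side and 24.3 CPM (158 counts) on the medulla side, a ratio of 2.63 (1.93 to 3.55). In the cortex library it was 76.5 CPM (328 counts) against 49.5 CPM (28 counts), a ratio of 1.55 (1.05 to 2.36). In Dbp level the cortex-side nuclei of the medulla library thus stood nearer to the cortex library than to their own medulla-side neighbours. The score genes were picked from these 2 libraries, so this likeness is not independent support. The cortical ratio is the less firm: with each of the 26 score genes left out in turn it ranged from 1.20 to 1.65 and was past 1.5-fold in 10 of 26 cases, without Pth1r and Slc5a3 together its interval was 0.991 to 2.37, which holds 1, and in thinned nuclei it was 1.08. The medullary ratio ranged from 2.52 to 3.08 with single score genes left out, past 1.5-fold in 26 of 26 cases, and from 2.55 to 3.71 over the other alternatives. In nuclei thinned to 1000 counts, 6.49% (4.20 to 9.50) of cortex-side and 2.45% (1.90 to 3.11) of medulla-side α nuclei of the medulla library held a Dbp count (15.1% and 5.33% without thinning).

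Nr1d1 went the same way on few counts. In the medulla library it was at 16.5 CPM (16 counts) on the cortex side and 4.31 CPM (28 counts) on the medulla side, a ratio of 3.84 (1.94 to 7.34), with 44 counts in all too few to enter the count past the fold. In the cortex library it was at 16.3 CPM (70 counts) and 12.4 CPM (7 counts), a ratio of 1.32 (0.608 to 3.40) with an interval that holds 1, and in nuclei thinned to 1000 counts the ratio was 4.65 (0.787 to 188).

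Per3 was also higher on the cortex side, at 382 CPM against 249 in the cortex library (ratio 1.54, 1.29 to 1.84) and at 332 CPM against 262 in the medulla library (1.27, 1.12 to 1.43). With single score genes left out the ratios ranged from 1.47 to 1.69 and from 1.23 to 1.31. The cortex-side levels lay between those of all α nuclei (354 CPM in cortex, 275 in medulla) and of MD nuclei (474 and 488). Clock went the other way in the medulla library, at 122 CPM on the cortex side and 172 on the medulla side (0.707, 0.580 to 0.856), and in the cortex library it was at 135 and 120.1 CPM (1.12, 0.872 to 1.46). The medullary Clock ratio was 0.889 (0.661 to 1.17) in nuclei thinned to 1000 counts, an interval that holds 1. It was 0.568 (0.400 to 0.784) when α nuclei needed a Cldn10 count. Cry2 was at 79.5 and 60.9 CPM in the medulla library (1.31, 1.01 to 1.67) and at 90.0 and 75.9 in the cortex library (1.18, 0.863 to 1.66). The cortical Cry2 ratio depended on the setting. It was 1.95 (1.0008 to 4.34) with side scores of at least 5 counts and 4 times the other. Without barcodes holding over 1 count of markers of other cell types it was 1.41 (0.926 to 2.26). Tef and Per2 differed little, with ratios of 0.907 and 1.11 in the cortex library and 1.02 and 1.13 in the medulla library. The remaining ratios of Per1, Cry1 and Nr1d2 lay between 0.867 and 1.19, each with an interval that holds 1. In nuclei thinned to 1000 counts the Cry1 ratio of the cortex library was 2.86 (0.751 to 24.3), on few counts.

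Counted by the fold, 2 of 10 members were higher on the cortex side in the cortex library (Per3 and Dbp) and 0 lower, where 13.8% and 10.9% of 9343 genes were. In the medulla library 1 of the 9 members with enough counts was higher (Dbp) and 0 lower, where 12.3% and 11.8% of 10051 genes were. The share of members past the fold was thus near that of all genes in both libraries, and the median ratios were 1.15 and 1.05 beside 1.01 and 0.996 for all genes. Without barcodes holding over 1 count of markers of other cell types, Nr1d1 was also past the fold in the cortex library. Its ratio was 1.51 (0.560 to 5.71), from 4 medulla-side counts.

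Other markers moved with the side. Summed proximal tubule markers (Lrp2, Slc34a1, Slc5a12 and Cubn) were at 875 CPM in cortex-side and 2890 CPM in medulla-side α nuclei of the cortex library, and at 215 and 305 CPM in the medulla library, with counts of all 4 genes in each group. Summed markers of distal convoluted tubule, collecting duct, endothelium, stroma, immune cells and podocytes were at 0 to 58.1 CPM in these groups, with Ptprc, the defining immune marker, at 0 in medulla-side nuclei of the cortex library and cortex-side nuclei of the medulla library. Without barcodes holding over 1 count of markers of other cell types, Dbp had a ratio of 1.78 (1.06 to 3.22) in the cortex library and of 2.55 (1.84 to 3.48) in the medulla library, and Per3 1.61 (1.28 to 2.03) and 1.28 (1.13 to 1.45). Robo2, a macula densa marker, was at 639 and 84.8 CPM on the 2 sides of the cortex library and at 510.0 and 3.54 CPM in the medulla library. Leaving out α nuclei with any count of Nos1, Pappa2 or Robo2 gave Dbp ratios of 1.62 (1.08 to 2.53) and 2.58 (1.79 to 3.65), and Per3 ratios of 1.48 (1.23 to 1.79) and 1.20 (1.04 to 1.39).

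**Figure D2:**
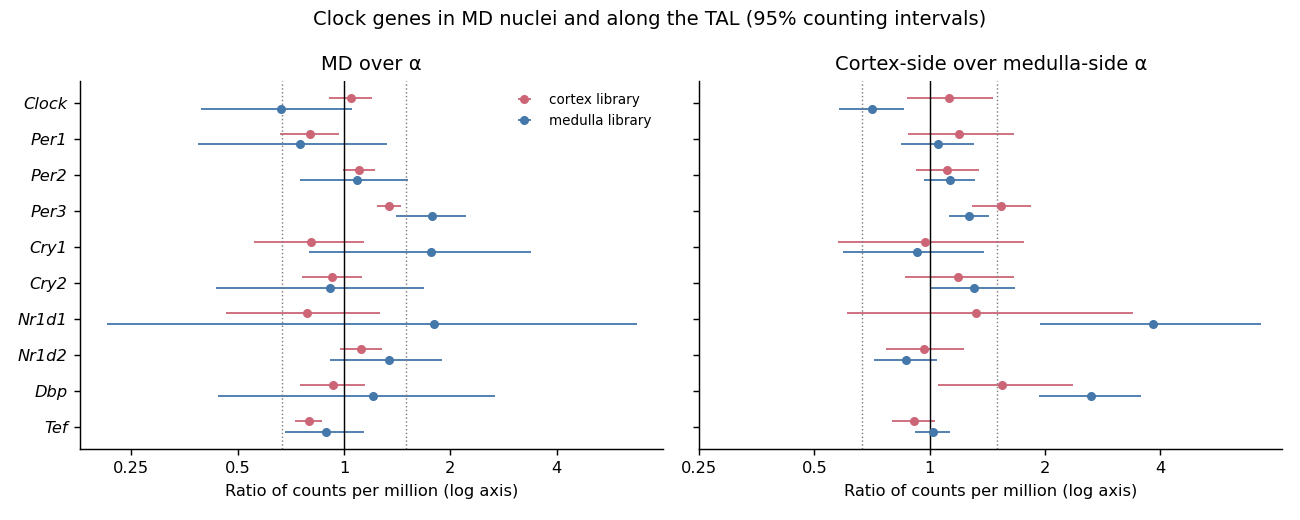
Ratio of CPM (log axis) of each clock gene in MD over α nuclei and in cortex-side over medulla-side α nuclei, with 95% counting intervals. The solid line marks equality and the dotted lines 1.5-fold. Per3 lies right of equality in all 4 comparisons, and Dbp reaches 2.63 on the cortex side of the medulla library.

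The α nuclei with at least 5 score counts were also placed in 4 bins by the share of their score counts that came from cortical genes, a view chosen after the data were seen. In the medulla library Dbp was at 22.0 CPM (2452 nuclei) in the lowest bin, 32.9 (616 nuclei) and 39.3 (485 nuclei) in the middle ones, and 80.7 (223 nuclei) in the highest. The interval of the highest bin, 58.9 to 108, lay above the 3 others. In the cortex library the bins held 48.6 CPM (105 nuclei, 14 counts), 62.1, 64.2 and 82.9 (72.3 to 94.6). Per3 ran from 260 CPM in the lowest to 355 in the highest bin of the medulla library and from 208 to 384 in the cortex library. Each bin was higher than the one before, but not all steps were beyond counting error. The intervals of the 2 lowest medullary bins overlapped (247 to 273 and 243 to 294), as did those of the 2 highest cortical bins (341 to 379 and 361 to 408). Nr1d1 was at 3.60 CPM in the lowest medullary bin and 17.9 in the highest (10 counts), and at 3.47 (1 count) and 20.3 in cortex.

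**Figure D3:**
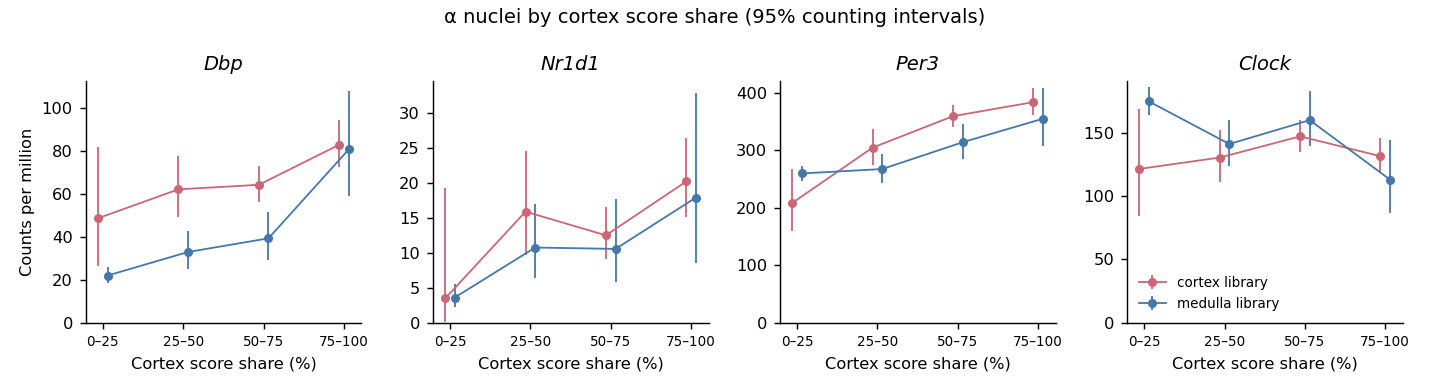
Level in CPM of Dbp, Nr1d1, Per3 and Clock in α nuclei binned by the share of score counts from cortical genes, for the cortex and medulla libraries with 95% counting intervals. Dbp is at 22.0 CPM in the lowest and 80.7 CPM in the highest bin of the medulla library, and at 82.9 CPM in the highest bin of the cortex library.

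The same split was then made within β and γ nuclei, also after the data were seen. In β nuclei of the medulla library Dbp was at 61.5 CPM (29 counts, 170 nuclei) on the cortex side and 27.7 CPM (20 counts, 224 nuclei) on the medulla side, a ratio of 2.22 (1.21 to 4.14). Per3 was at 456 and 274 CPM there, a ratio of 1.66 (1.37 to 2.03). In cortical β nuclei Per3 was at 415 and 323 CPM (1.29, 1.03 to 1.62), while Dbp was at 70.3 and 72.1 CPM (0.975, 0.609 to 1.65), the medulla side resting on 53 nuclei. In cortical nuclei of the γ rule Per3 was at 483 and 342 CPM (1.41, 1.05 to 1.91) and Dbp at 71.6 and 37.6 CPM (1.91, 0.793 to 4.89). Per3 was thus higher on the cortex side in each of the 5 splits made, all with intervals above 1. These were α and β nuclei of both libraries and cortical nuclei of the γ rule, which stood nearer to β by their markers. Dbp had the higher level on the cortex side in all but cortical β. Nr1d1 had ratios of 0.575 in cortical β, 1.28 in medullary β and 2.14 in cortical nuclei of the γ rule. For Clock they were 0.728, 0.885 and 0.910 in the same order. Each of these Nr1d1 and Clock ratios had an interval that holds 1. In the β and γ splits, barcodes holding over 1 count of markers of other cell types were left in. Without such barcodes 1047 of 1493 cortical β and 176 of 248 cortical γ nuclei remain. Medullary γ nuclei held too few on the cortex side to be split.

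Between β and α nuclei the clock genes were close to the other genes. In cortex 0 of 10 members were past the fold upward and 0 downward, where 5.44% and 4.15% of 12244 genes were, and the members' median ratio was 0.964 beside 1.01. Per2 was at 0.871 (0.807 to 0.938), Per1 at 0.851 (0.753 to 0.962) and Per3 at 1.09 (1.03 to 1.16). In medulla 1 member was higher (Nr1d1, 1.53, 0.850 to 2.61, from 18 β counts, and 2.90, 1.29 to 6.10, in thinned nuclei) and 0 lower, where 6.97% and 7.95% of 11129 genes were, with medians of 0.994 and 0.986. Dbp was at 1.43 (1.09 to 1.85) and Per3 at 1.26 (1.16 to 1.38) there. The summed cortical score was 7612 CPM in medullary β and 4243 CPM in medullary α nuclei, so class and position moved together in that library, and their parts were not tested.

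Between γ and α nuclei the medullary comparison is the deep one, with 3542 and 3776 nuclei. There 0 of 10 members were higher and 0 lower, where 2.52% and 5.27% of 12347 genes were, and the medians were 0.930 and 1.00. Cry2 was at 0.752 (0.664 to 0.850), Per2 at 0.834 (0.778 to 0.895), Dbp at 0.814 (0.679 to 0.974) and Nr1d2 at 1.14 (1.06 to 1.23). With Per1 (0.899, 0.816 to 0.990) and Clock (above), 6 members differed by more than counting error, each by less than 1.5-fold. For at least 2 of them an alternative gave an interval that holds 1. Nr1d2 was at 1.04 (0.922 to 1.17) in nuclei thinned to 1000 counts. Dbp was at 0.828 (0.685 to 1.0006) without barcodes holding over 1 count of markers of other cell types. Clock came as near to 1 as 1.06 (class thresholds raised by 1) and Per1 as 0.913 (thresholds lowered by 1). The γ nuclei lay deeper, with a summed cortical score of 999 CPM. In cortex 0 members were higher and 0 lower, where 7.90% and 10.4% of 11145 genes were, and 9 of the 10 intervals held 1, the exception being Per3 at 1.15 (1.03 to 1.29).

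**Figure D4:**
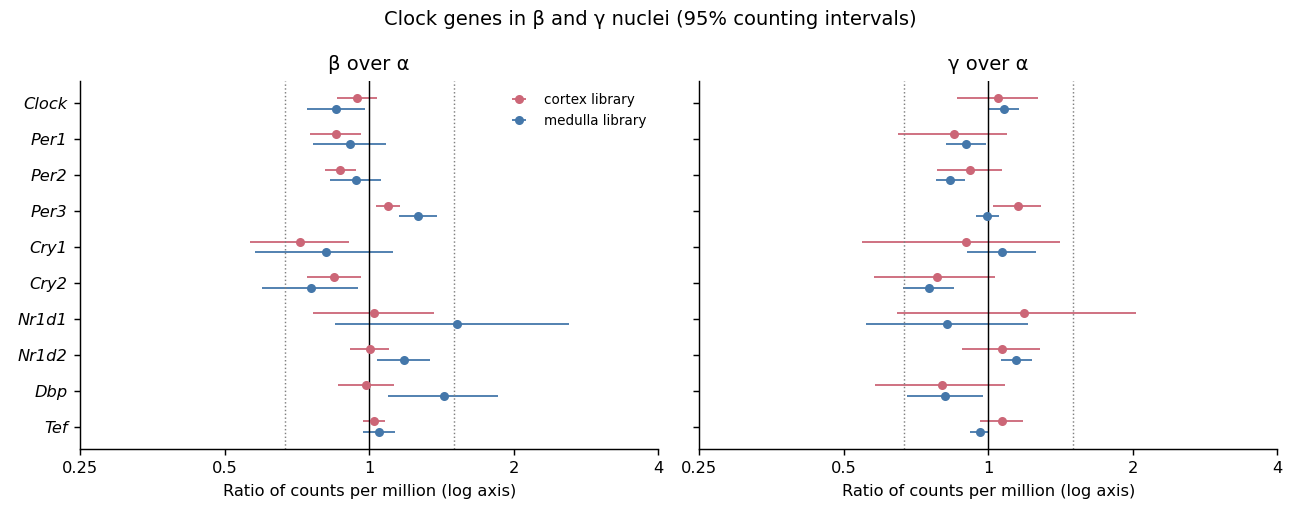
Ratio of CPM (log axis) of each clock gene in β over α and γ over α nuclei of both libraries, with 95% counting intervals, a solid line at equality and dotted lines at 1.5-fold. All ratios but that of Nr1d1 in medullary β nuclei lie between the dotted lines.

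The wider clock pathway was followed in 21 further genes, which a fixed list grouped as other clock factors (9), kinases, ligases and cofactors (6) and outputs (6). Rora, the activator opposed to the REV-ERB receptors, was the most counted of these, at 1677 CPM in α nuclei of the cortex and 1411 CPM in those of the medulla, over a gene of 734 kilobases. In MD against α nuclei of the cortex, 1 of 4 factors with enough counts was higher and 1 lower, 1 of 4 kinases and ligases was higher, and of 5 outputs 1 was higher and 2 lower, beside 12.1% and 12.3% of all genes tested. Bhlhe40, which encodes a repressor of E-box genes, was at 151 against 70.7 CPM (2.14, 1.84 to 2.48). Por, the reductase that serves cytochrome P450 enzymes, was at 307 against 163 CPM (1.89, 1.70 to 2.09), and Csnk1e, a kinase of the Per proteins, at 37.8 against 21.6 CPM (1.75, 1.29 to 2.35). Lower were Nampt, an enzyme of NAD synthesis, at 84.0 against 168 CPM (0.498, 0.416 to 0.593), Ciart, a repressor of CLOCK and BMAL1, at 13.8 against 26.1 CPM (0.528, 0.328 to 0.814), and Lonrf3 at 7.80 against 16.2 CPM (0.481, 0.250 to 0.853). Without barcodes holding over 1 count of markers of other cell types, Csnk1e was at 1.39 (0.955 to 1.98), an interval that holds 1. Bhlhe40, Por, Nampt, Ciart and Lonrf3 stayed past the fold. Wee1 was then also past it, at 1.51 (1.25 to 1.81), and Hlf, at 1.46 (1.15 to 1.85), had an interval above 1.

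In medullary MD, Bhlhe40, Por, Csnk1e, Nampt, Ciart and Lonrf3 were on the same sides as in cortex. Por was at 319 against 65.5 CPM (4.88, 3.61 to 6.46) and Nampt at 60.2 against 293 CPM (0.205, 0.0983 to 0.378). Past the fold upward there were 2 of 4 factors (Hlf, 2.82, 1.68 to 4.46, and Bhlhe40, 1.78, 1.01 to 2.92). So were 1 of 4 kinases and ligases (Csnk1e, 2.88, 1.22 to 5.81, from 8 counts) and 2 of 5 outputs (Por and Wee1, 2.12, 1.40 to 3.09). Downward were Ciart (0.565, 0.0679 to 2.07, from 2 counts), Nampt and Lonrf3, which had 0 counts among the MD nuclei. Of all genes tested in this comparison, 23.5% were past the fold upward and 28.8% downward. The part of position along the limb in the MD ratios of these genes was not tested.

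Along the limb the outputs split. Por was higher on the cortex side in both libraries, at 169 against 111 CPM (1.52, 1.17 to 2.00) and at 133 against 49.8 CPM (2.67, 2.16 to 3.29), and Nampt was lower, at 151 against 260 CPM (0.581, 0.485 to 0.700) and at 167 against 319 CPM (0.525, 0.444 to 0.616). Usp2, a ubiquitin protease gene, was at 631 against 442 CPM (1.43, 1.26 to 1.63) in cortex and 575 against 368 CPM (1.56, 1.42 to 1.72) in medulla. In the medulla library Bhlhe40 (1.98, 1.53 to 2.54), Ciart (1.64, 1.05 to 2.47) and Csnk1e (1.80, 1.11 to 2.83) were also past the fold upward. Of all genes 12.3% were higher and 11.8% lower there. In the cortex library, where 13.8% of all genes were higher and 10.9% lower, Hlf, the third PAR factor, was at 82.3 against 171 CPM (0.480, 0.383 to 0.608) and Lonrf3 at 0.630 (0.343 to 1.25). The Hlf value moved with the proximal tubule markers: without barcodes holding over 1 count of other cell types, Hlf was at 56.8 against 54.9 CPM (1.03, 0.645 to 1.75), and barcodes under the Slc12a1 minimum held 270 CPM in cortex and 224 CPM in medulla. Por was then at 2.64 (1.71 to 4.31) and Nampt at 0.471 (0.385 to 0.581) in the cortex library.

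**Figure D5:**
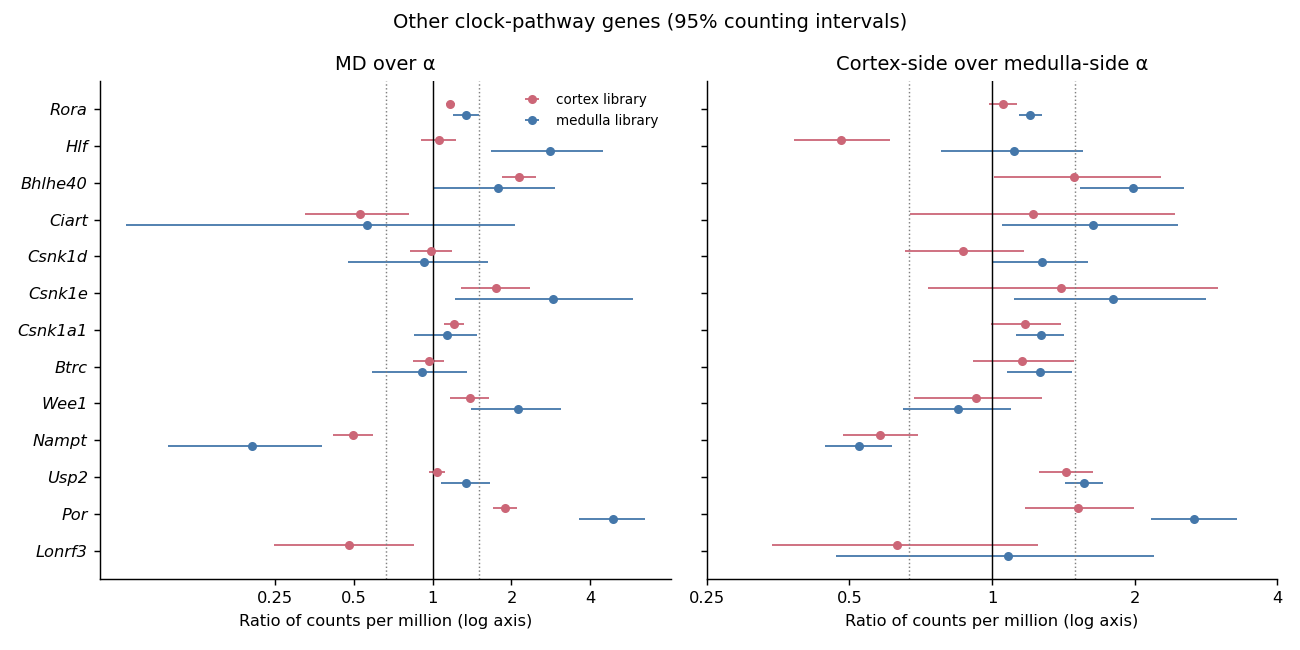
Ratio of CPM (log axis) of 13 other clock-pathway genes with enough counts, in MD over α nuclei and in cortex-side over medulla-side α nuclei, with 95% counting intervals. Por lies right of equality and Nampt left of it in all 4 comparisons, while Hlf along the limb is at 0.480 in the cortex library and has an interval that holds 1 in the medulla library. Lonrf3 in medullary MD, with 0 counts, has no point.

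In β nuclei 1 of 4 kinases and ligases was lower in cortex (Csnk1e, 0.593, 0.441 to 0.791) and no other listed gene was past the fold, beside 5.44% of all genes higher and 4.15% lower. In medulla Por was higher in β (1.72, 1.46 to 2.02), and Ciart (0.587, 0.360 to 0.914) was lower, beside 6.97% and 7.95% of all genes. In γ against α nuclei of the medulla Npas2, a relative of Clock, was higher on few counts (1.57, 0.977 to 2.56) and Bhlhe40 lower (0.660, 0.572 to 0.760), beside 2.52% and 5.27% of all genes. In cortex 0 of the 13 listed genes with enough counts were past the fold, beside 7.90% of all genes higher and 10.4% lower.

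Free RNA was read from barcodes of the unfiltered tables that were not called as nuclei and held at most 100 counts. The clock genes were in this pool at levels close to those of the nuclei, between 0.726 (Cry1) and 1.36 (Nr1d1) times the TAL level in cortex and between 0.826 (Per3) and 1.79 (Nr1d1) in medulla. Dbp was at 81.6 CPM there in cortex and 34.0 CPM in medulla. No cell type in the data is known to lack these genes, so shares of nuclei with a count cannot be set against a true background. The part of free RNA in the class and side differences was not tested.

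In single nuclei no pair of members was counted together more or less often than its separate shares give, within counting error. Over the 45 pairs of members in α nuclei thinned to 1000 counts, the number of nuclei with both genes over that given by the product of their shares had a median of 1.01 in cortex and 0.986 in medulla, and 0 intervals lay above 1 and 0 below it in either library. Dbp and Nr1d1, the members with the highest side ratios in the medulla library, were found together in 6 cortical nuclei against 3.48 by the product (1.72, 0.633 to 3.75) and in 0 medullary nuclei against 0.718 (0 to 5.13). At this depth a shared state of single nuclei was not detectable in these counts.

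The members with the widest class range within a library were Nr1d1 (2.18-fold, medullary MD over γ), Cry1 (2.16-fold, medullary MD over β) and Per3 (1.79-fold, medullary MD over γ). The MD levels behind these ranges rest on 2 counts for Nr1d1, 9 for Cry1 and 81 for Per3, and Cry1 in medullary MD was below α (0.771) in thinned nuclei. Among 8277 genes with at least 500 counts, those whose log2 CPM over the 8 class and library groups was most like Per3 were Ankrd28 (Pearson r 0.993), Ica1 (0.983) and Gm15860 (0.982). For Nr1d1 they were Echdc2 (0.992), Dhtkd1 (0.980) and Rin2 (0.969), and for Cry1 Snhg8 (0.977), Mrpl19 (0.967) and Ankrd49 (0.962). These r describe 8 points that share 2 libraries and their depth.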

How the data were processed

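Single nuclei of sorted GFP-bearing TAL cells from 1 cortex and 1 medulla library were captured with particle-templated partitioning and 3′ sequencing. The authors aligned reads to GRCm39 and deposited raw counts per gene and barcode, unfiltered and filtered; the submitters' processing notes also name bcl2fastq and Seurat 4.4.0. Doublet removal, ambient correction and integration described by the study are not in these counts. The filtered counts totalled 16457300 in cortex and 20947211 in medulla.

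Counts were summed per class and library and divided by the class total (CPM). Levels carry exact Poisson intervals, ratios conditional binomial (Clopper-Pearson) intervals and shares Clopper-Pearson intervals, all 95% and for counting error only. With 1 library per region there were no tests. Named genes are all members, the pathway genes past the fold and, for the 3 members of widest class range, the 3 genes of highest r on log2(CPM + 1). Members, lists and score genes were chosen with earlier results of these data known. Doublets stayed in; Scrublet scores (scanpy 1.11.5) served as an alternative. Gene positions and promoters came from GENCODE M39 and GRCm39. Scripts ran in Python 3.11.15 with numpy 2.4.6 and scipy 1.17.1 and were tested on simulated data. Results were recomputed under 12 other settings, and those on position also under 4 more chosen after the data were seen. Some listed genes and 1 setting of the score genes are not reported here.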

Additional observations from a re-analysis of the deposited data

How the results depend on the processing

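Of 926 member ratios recomputed under the alternatives, 896 stayed within the counting interval of the reported value, and 30 left it. Part of the 896 had little or no room to move. The 926 also include ratios that could not differ from the reported value. A quality filter on nuclei kept all 2824 α, 1493 β, 248 γ and 653 MD nuclei of the cortex. In medulla it kept 3775 of 3776 α nuclei. Rescaling the totals kept the same nuclei and multiplied all ratios of a comparison by the same factor. The 896 is therefore not a measure of robustness by itself. On the other side of 1 than the reported value were 53 of the 926, 6 of them out of its interval and 0 with an own interval that excludes 1. Among members past the fold, 1 changed side: Cry1 in medullary MD over α was 0.771 in nuclei thinned to 1000 counts. Per3 in MD over α stayed between 1.32 and 1.41 in cortex and between 1.66 and 1.94 in medulla. The counts of members past the fold are small, and most changes came from 1 or 2 genes near it. Not all changes are listed here. With class thresholds raised by 1 they were 1 (γ, cortex), 2 (β, medulla) and 2 (side, medulla). With thresholds lowered by 1 the count was 0 (β, medulla). When α nuclei needed a Cldn10 count it was 2 (MD, medulla), 1 (side, cortex) and 2 (side, medulla). Without high doublet scores it was 1 (γ, cortex). Without other cell types it was 1 (MD, cortex) and 2 (β, medulla). Nr1d1 (1.51, 0.560 to 5.71, from 4 medulla-side counts) was then also past it on the cortex side of the cortex library. Clock in medullary MD (0.710, 0.420 to 1.13) was then no longer past it. Thinning gave 2 (MD, cortex) and 2 (γ, cortex). At 2-fold it was 0 (β, medulla), 0 (MD, medulla) and 0 (side, cortex), and with at least 200 counts 0 (β, medulla). Of the alternatives added after seeing the data, side scores of at least 5 counts and 4 times the other gave 2 (side, medulla), and leaving out macula densa gene counts gave 1 (side, cortex) and 2 (side, medulla). With those side scores Cry2 in the cortex library also had a ratio past 1.5-fold (1.95, 1.0008 to 4.34). The cause of these changes was not tested. No paired analysis was possible because each region has a single library. Automatic doublet calls covered 6.60% of cortical and 0.0369% of medullary barcodes, so in medulla the highest 5% of scores were used. Depth limits Nr1d1, Cry1 and all medullary MD values most.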
